A study of Homo sapiens with 12 samples.

Results

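The silencing left after release of a recruited pair of protein domains was compared with the silencing during recruitment, in the repression screen and the memory screen of a combinatorial library. Members were chosen by screen label and depth. Of 9983 ordered domain pairs seen in the series, 8935 had at least 50 reads over both fractions in each replicate of both screens, and these were tested in 8 of the 12 samples. All 8 samples were of K562, a human line from a chronic myeloid leukaemia, carrying the reporter pJT039 and a lentiviral library in which the doxycycline-dependent DNA-binding protein rTetR is fused to 2 domains, written below as first position + second position. Cells of each replicate were infected separately, selected with blasticidin for 7 days and given 1000 ng/mL doxycycline from day 8. The repression samples had 5 days of doxycycline, and the samples labelled unused memory screen had the same 5 days of doxycycline and then a further 5 days after its removal. Both screens were separated into bound and unbound cells in each of 2 replicates, and bound was read as reporter ON. No group without doxycycline was among these samples, so every value is relative to control domains (11 tiles of dystrophin, DMD, and 10 random sequences) in the same libraries. The line is a single cell line with a single reporter, and each domain is a short piece of its protein.

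Recruiting a repressor to a promoter can silence a reporter in several ways, and these differ in how well the silent state outlasts the repressor. KRAB domains of zinc-finger proteins bind the corepressor KAP1 (TRIM28), which brings the H3K9 methyltransferase SETDB1 and HP1. HP1 and other chromodomain proteins read methylated histone H3 and can carry that mark to neighbouring nucleosomes, while Polycomb group proteins act through H2A ubiquitination and H3K27 methylation. Deacetylation alone is known as a form of silencing that cells tend to lose quickly. A memory screen asks which of these states cells keep through division once the fusion has left the DNA.

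All effects below are log2 ratios of bound over unbound relative to pairs of 2 controls, so a negative effect means more silenced cells. The change is the memory effect minus the repression effect, and a positive change means less silencing, relative to controls, in memory than during recruitment. The effect of a domain comes from reads summed over its pairs with controls in both positions. By the RefSeq annotation of GRCh38, the genes named most below lie at chr17:48070059-48101478 (CBX1), chr13:19633659-19673441 (MPHOSPH8), chr12:42157104-42238248 (YAF2), chr19:38211006-38229695 (DPF1) and chr5:168291645-168472303 (WWC1). Each effect is given with its standard error (SE) from an edgeR quasi-likelihood fit to the 8 libraries, and a call needs a Benjamini-Hochberg adjusted p at or below 0.05. A score is the same ratio in 1 replicate, averaged over a domain's control pairs with equal weight, and is given for replicate 1 and then replicate 2.

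The 8 libraries held 6647483 to 41167818 read pairs. The unbound memory library of replicate 1 stood apart, with 1.33% of its reads in pairs of a domain with itself, against 10.5% to 24.8% in the other 7 libraries. Such pairs were left out of every domain effect. Scores of the 8935 pairs correlated with Pearson r = 0.81 between the replicates of the repression screen and r = 0.36 between those of the memory screen. For 22 of 200 domain positions, 9 first and 13 second, the share of reads differed more than 2-fold between the replicates of a fraction in any screen of the series, and these are called shifting positions below. In the 8 libraries used here 18 of them did so. The other 4, the second positions of KIBRA, HXA13 and ANM2 and the first of DMD tile 182, passed only through the activation screen. The 22 positions touched 1639 tested pairs, among them all pairs with DPF1, KRAB Q3KP31 or tile 38 of ENSG00000111642 first or with KIBRA, SSX2, GSX1, HXA13, HERC2, ATF1 or CDYL2 second. Results that turn on them are given with and without them. Among the controls, DMD tile 31 was itself silencing in the repression screen, and leaving it out of the controls kept 50 domains called higher and called 22 in place of 21 lower in memory. Apart from it, changes of the control domains ran from -0.32 to 0.86 with a median of -0.04, the highest being DMD tiles 255 and 259, whose second positions shifted.

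Silencing fell back toward the control level for most domains, and no domain gained silencing in a call that held without the shifting positions. The change was called higher for 50 of 79 domains (63.3%) and lower for 1 (1.27%), DPF1. Recruited, 57 domains (72.2%) were called lower than controls and 3 (3.8%) higher. After release 21 (26.6%) were called lower and KIBRA alone (1.27%) higher. Of 42 domains called silencing (repression effect called and at most -1, 53.2% of 79), 23 were lost (54.8%), meaning a called rise with no memory effect called. For 18 (42.9%) the effect weakened, with a called rise and a memory effect still called. HXA13 alone (2.38%) held its effect without a called change. Over the 42, the memory effect was a median 18.9% of the repression effect on the log2 scale.

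The count of rises was 41 to 53 under the other control-centred fits that kept control partners in both positions. Single rises were less firm in places: of 19 control-centred alternatives WWP2 was called in 9, NIZP1 C2HR in 12, SSX2 and ATF1 in 15 and CREM in 16. Directions are relative to the controls: scaling to total counts moved the median change of the control domains to -1.40, and TMM over all pairs to -1.64. Calls were then 21 higher and 37 lower, and 18 higher and 38 lower. The memory calls moved more. Without memory replicate 1 no domain was called lower in memory, without memory replicate 2 6 were, and without repression replicate 1 or 2 9 and 1 were. The line between weakened and lost therefore moved with each replicate left out.

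**Figure D1:**
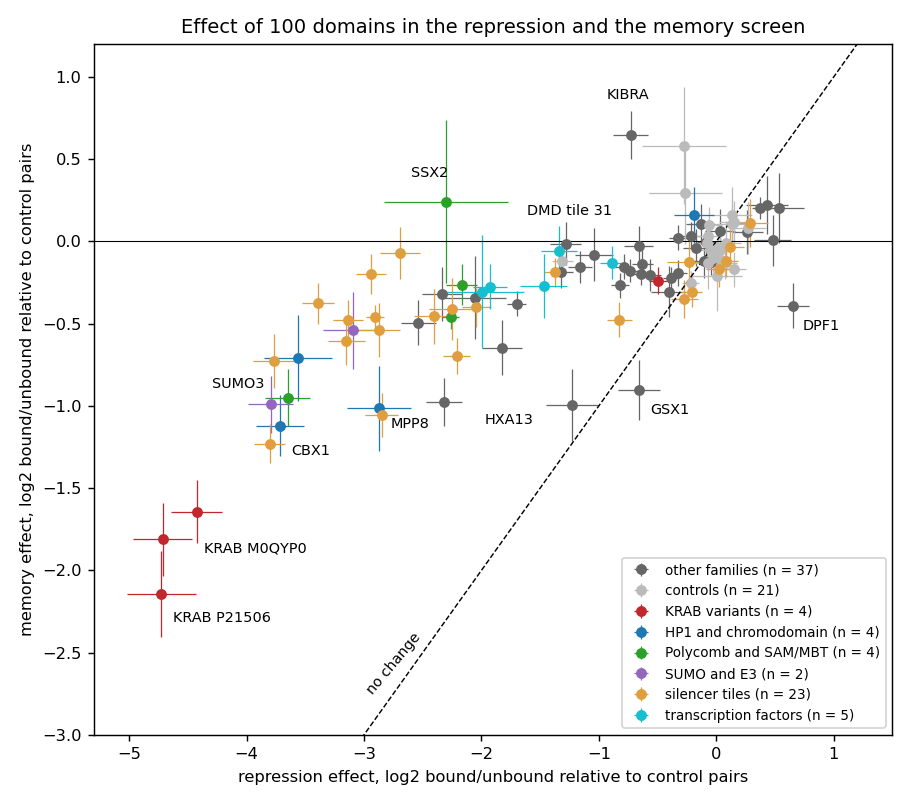
Repression effect (x axis) against memory effect (y axis) of all 100 domains, in log2 bound over unbound relative to control pairs, with SE as bars and colour for family; the dashed line marks no change. Most domains to the left of -1 lie between -1 and 0 in memory, and the 3 KRAB domains listed as variants lie lowest in memory, between -2.15 and -1.64.

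The 3 KRAB domains listed as variants kept the most silencing. KRAB P21506, the domain of ZNF10 long used as a model KRAB repressor, scored -4.25 and -5.65 during recruitment, then -2.52 and -1.84. Both memory scores lay above both repression scores and well below 0. Its bound-to-unbound ratio was 26.5-fold below controls during recruitment and 4.43-fold below after release, an effect of -4.73 (SE 0.29) that became -2.15 (SE 0.26). KRAB M0QYP0 scored -4.28 and -5.02, then -1.99 and -1.44. Its effect went from -4.71 (SE 0.25) to -1.81 (SE 0.22), and its change of 2.90 (SE 0.31, edgeR adjusted p = 0.00086) was the third highest of the 79 domains. KRAB Q3KP31 scored -4.27 and -5.31, then -1.75 and -1.65, the closest pair of memory scores among the 3. Its effect went from -4.43 (SE 0.22) to -1.64 (SE 0.19), and without the shifting positions, which removes its first position, it ended at -1.77. The share of the repression effect left was 45.4% (SE 6.2) for KRAB P21506, 38.4% (SE 5.1) for KRAB M0QYP0 and 37.1% (SE 4.7) for KRAB Q3KP31, and these shares differed by less than their summed SE. Over 19 alternatives centred on controls, the memory effect of KRAB P21506 ran from -2.45 to -1.84 and was called in 16.

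The KRAB domain of ZFP28, a zinc-finger protein with more than 1 KRAB domain, went a different way. It scored -0.36 and -0.69 during recruitment, then -0.16 and -0.15. Its repression effect was called but small, at -0.50 (SE 0.08), and its change of 0.26 (SE 0.11) was not called. Another 5 domains of zinc-finger proteins were grouped apart: the KRAB domains of ZN473, ZN597 and NIZP1, the C2HR domain of NIZP1 and the DUF3669 domain of ZN777. Among these 5, 3 rose and 1 was called lower in memory, near the 63.3% and 26.6% of all domains, and the median memory effect was -0.16. The DUF3669 domain of ZN777 went from -1.70 (SE 0.08) to -0.38 (SE 0.08), with memory scores of -0.28 and -0.35. The KRAB domain of ZN473, an unusual KRAB known for activation, went from -1.16 (SE 0.10) to -0.16 (SE 0.10), with memory scores of 0.03 and -0.23 on either side of the control level.

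Of 4 HP1 and chromodomain proteins, 3 rose and 2 were called lower in memory, against 63.3% and 26.6% of all domains, with a median memory effect of -0.86 against -0.26 over all 79. The chromoshadow domain of CBX1 (HP1 beta), which dimerises and binds other repressors, scored -3.76 and -4.35 during recruitment and -1.55 and -0.67 in memory. All 4 scores were below 0 and the 2 screens did not overlap. Its effect went from -3.72 (SE 0.20) to -1.12 (SE 0.19), 30.1% (SE 5.3) of the start. The chromodomain of MPP8 (gene MPHOSPH8), an H3K9 methyl reader of the HUSH complex, scored -3.65 and -3.95, then -1.69 and -1.04. Its memory scores were lower than those of CBX1 in both replicates, although its fitted effect, which weights pairs by reads, was -1.01 (SE 0.26) after -2.87 (SE 0.27). Its change of 1.86 was called in 17 of the 19 alternatives and its memory effect in 13. The chromodomain of CDYL2, a reader related to CDYL, scored -3.85 and -4.70, then -0.62 and -1.10. Its memory effect of -0.71 (SE 0.26) was not called, and without the shifting positions, which removes its second position, it was -1.24 and called. CHD3, a NuRD remodeller tested through its DUF1087 piece, was not silencing, at -0.19 (SE 0.17) and then 0.16 (SE 0.17), which was -0.33 without the shifting positions.

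All 4 Polycomb and SAM/MBT domains silenced and all 4 rose, and 2 were still called lower in memory, against 53.2%, 63.3% and 26.6% of all domains. YAF2, a subunit of variant PRC1, scored -3.74 and -4.55 and then -1.27 and -0.91. Its effect fell from a size near that of CBX1, -3.65 (SE 0.19), to -0.95 (SE 0.17). The RING-type piece of PCGF2 (MEL18, a core PRC1 subunit) scored -2.29 and -2.55 and then -0.34 and -0.48, among the closest replicates of any domain. Its memory effect of -0.46 (SE 0.07) was small and called. The SAM domain of SCMH1, which polymerises with other Polycomb proteins, went from -2.17 (SE 0.13) to -0.26 (SE 0.12), with memory scores of 0.09 and -0.26. The SSXRD domain of SSX2, which binds H2A-ubiquitinated nucleosomes, had the widest spread, with repression scores of -1.16 and -2.98. Its memory effect of 0.24 lay above the control level and was not called. Its change of 2.54 (SE 0.72) became 1.01 without the shifting positions.

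SUMO3, the small modifier that recruits SUMO-binding repressors, was near CBX1 during recruitment, with scores of -3.97 and -4.53. In memory it scored -1.34 and -0.53, both below 0 and far apart. Its effect went from -3.80 (SE 0.19) to -0.99 (SE 0.17), with a change of 2.81 (SE 0.25, edgeR adjusted p = 0.00068). The cytochrome b5-like domain of HERC2, a large E3 ubiquitin ligase, went from -3.09 (SE 0.25) to -0.54 (SE 0.23), and the latter was 0.01 without the shifting positions. The helix-loop-helix domain of ID2, an inhibitor of bHLH factors, went from -2.33 (SE 0.17) to -0.32 (SE 0.16), with memory scores of -0.35 and 0.02.

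**Figure D2:**
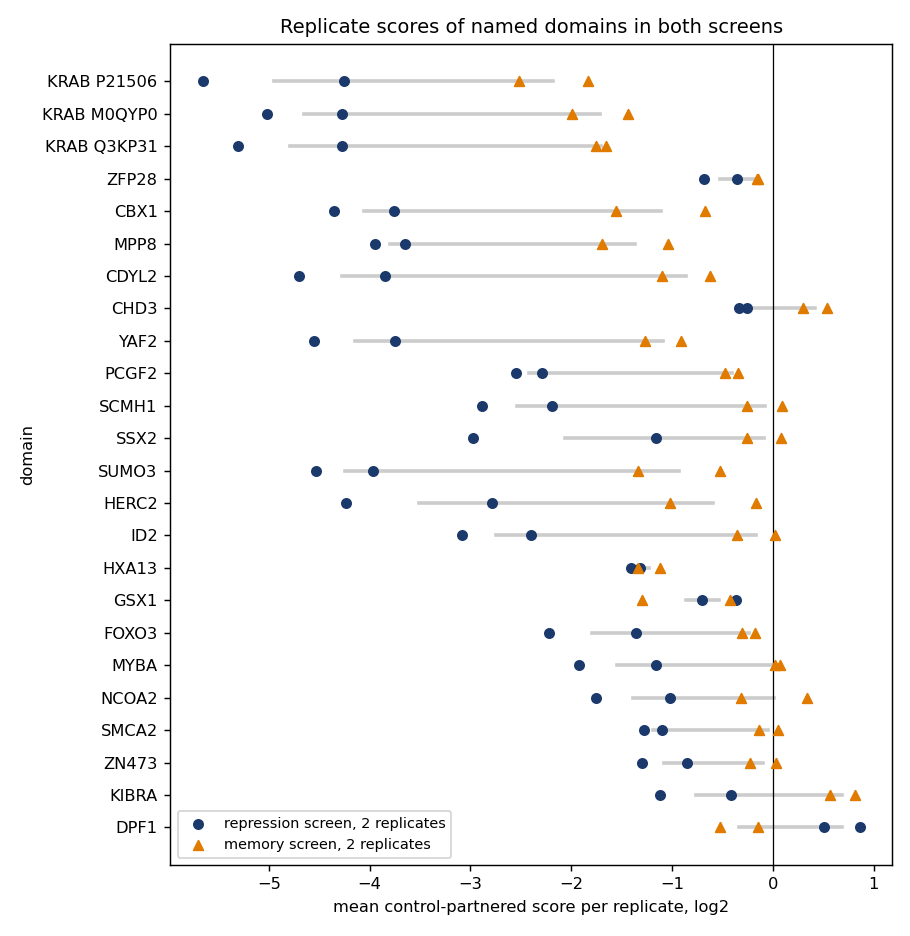
Mean control-partnered score of 24 domains in each replicate (x axis, log2), with circles for the repression screen and triangles for the memory screen; grey bars join the means of the 2 replicates. The 3 KRAB variants, CBX1, MPP8 and YAF2 have both memory triangles well below 0, while those of MYBA, NCOA2, SMCA2 and ZN473 lie around 0.

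Silencer tiles are fragments of proteins named in the files by Ensembl identifier and tile number. Of 23 tiles, 15 silenced, 15 rose and 8 were called lower in memory, with 8 lost and 7 weakened. Over all 79 domains 53.2% silenced, 63.3% rose and 26.6% were called lower in memory, close to the shares of the tiles. Of all 42 silencing domains, 54.8% were lost and 42.9% weakened. Tiles of like starting strength did not all end alike, in an example of 2 tiles picked by their memory effect or change in these same data. Tile 18 of ENSG00000100307 and tile 11 of ENSG00000163602 had repression effects of -3.80 (SE 0.13) and -3.77 (SE 0.18). In memory tile 18 scored -1.26 and -0.90, while tile 11 scored -0.75 and -0.44, so the replicates of the 2 tiles did not overlap. Tile 11 had the highest change of all 79 domains, 3.04 (SE 0.23, edgeR adjusted p = 0.00054). Tile 38 of ENSG00000111642 was next, with a change of 3.02 (SE 0.18) from -3.40 to -0.38, and its memory scores of 0.20 and -0.52 lay on both sides of the control level. Its first position shifted, and without the shifting positions it ended at -0.49, which was called. At the other end, tile 118 of ENSG00000076108 went only from -2.85 (SE 0.14) to -1.06 (SE 0.13), with memory scores of -1.22 and -1.0. The share left among silencing tiles ranged from 2.56% to 37.1% with a median of 18.8%, next to 18.9% over all 42 silencing domains.

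Among the 13 domains with a repression effect at or below -3, the 3 KRAB variants ended at -2.15 to -1.64 and the other 10 at -1.23 to -0.38. Of those 10, 7 were called lower in memory. Over the 79 domains the repression and memory effects had Pearson r = 0.76, and r = 0.69 over 76 without the 3 KRAB variants, a description of points that share libraries and controls.

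Silencing domains of the transcription factor and coactivator families, with the homeodomains grouped apart, had no called memory effect. The bZIP, HMG-box and Myb domains of JDP2, TOX and TERF1 were also grouped apart, among 12 other domains. Of those 12, 1 was called lower in memory. A missing call does not place them at the control level. All 5 transcription factor domains rose, 4 of them from silencing to lost, against 63.3% of all domains that rose. None was called lower in memory, against 26.6% of all domains. Their median memory effect was -0.27, beside -0.26 over all 79. The transactivation domain of FOXO3 scored -1.36 and -2.23 and then -0.17 and -0.31. Its effect went from -1.93 (SE 0.14) to -0.28 (SE 0.14). The LMSTEN piece of MYBA (A-Myb) scored -1.16 and -1.93 and then 0.07 and 0.02, an effect of -1.34 (SE 0.15) that ended at -0.06 (SE 0.15). The bZIP domains of ATF1 and CREM ended at -0.31 (SE 0.34) and -0.27 (SE 0.19), with second positions that shifted. Without the shifting positions their changes were 1.21 and 1.51 in place of 1.69 and 1.2, all called, but CREM in second position alone changed by 0.81 and -0.33 in the 2 replicates. The coactivator NCOA2, which binds nuclear receptors and acetyltransferases, went from -1.28 (SE 0.13) to -0.01 (SE 0.13), with memory scores of 0.34 and -0.31. The QLQ domain of SMCA2, the ATPase BRM of SWI/SNF, went from -1.32 (SE 0.09) to -0.19 (SE 0.09). The control DMD tile 31 went from -1.31 to -0.12. KMT2B, an H3K4 methyltransferase tested through its CXXC finger, differed in that its memory effect of -0.65 (SE 0.17) was called, yet its memory scores of -0.87 and -0.21 were far apart. The 4 SH3 domains had memory effects of -0.27 to 0.07 and the 5 WW domains, KIBRA aside, of -0.31 to 0.10.

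**Figure D3:**
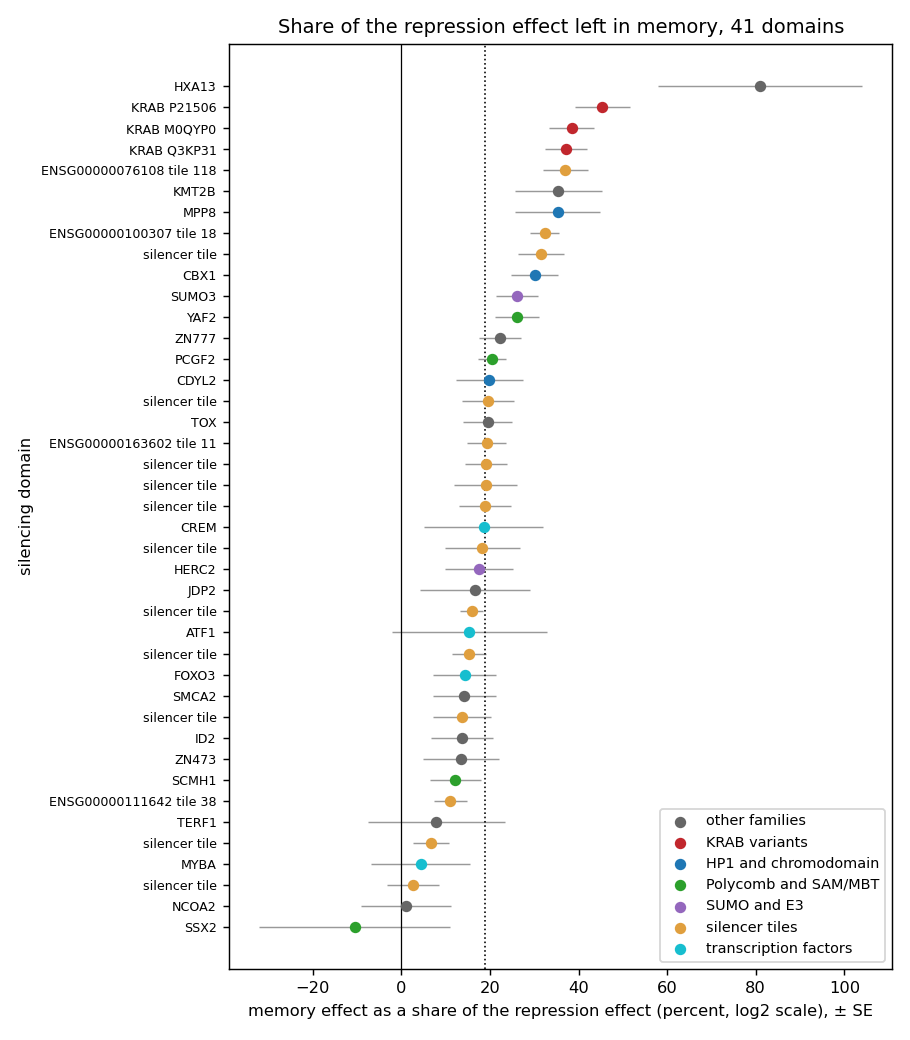
Memory effect as a share of the repression effect for 41 of the 42 silencing domains (x axis, percent of the log2 effect), each with its SE and coloured by family; the dotted line is the median of the 42, 18.9%. KRAB variants lie at 37.1% to 45.4%, and HXA13 at the top has the largest SE, 23.1%, with a second position among the 22.

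The homeodomains, DPF1 and KIBRA had values that lay apart in their first and second positions, although the test of position called no domain. HXA13 scored -1.32 and -1.41 during recruitment and -1.12 and -1.34 in memory, and its change of 0.23 (SE 0.31) was not called. In the first position alone its 2 replicate changes were 0.81 and 1.02, and in the second -0.46 and -0.96. GSX1, the other homeodomain, went from -0.66 (SE 0.18) to -0.90 (SE 0.18). Its replicate changes were 0.29 and 0.66 in the first position and -1.91 and -1.13 in the second. Without the 22 positions the changes were 0.64 for HXA13 and 0.21 for GSX1, and the memory effect of HXA13 was -0.40 and no longer called. Without the 18 positions, which keeps the second position of HXA13, its change was 0.21 and its memory effect was -0.98 and called. The read share of GSX1 in second position was 0.13% and 0.34% in the 2 bound repression libraries, 0.09% and 0.08% in the unbound ones, 0.09% and 0.27% in bound memory and 0.28% and 0.29% in unbound memory.

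DPF1, a BAF subunit tested through its Requiem N-terminal domain, was the only domain with a called fall, from 0.65 (SE 0.14) to -0.39 (SE 0.14), a change of -1.04 (SE 0.19, edgeR adjusted p = 0.006). Its replicate changes were -2.40 and -0.99 in the first position and -0.26 and -0.29 in the second. In first position DPF1 took 2.12% and 0.97% of the bound repression reads, 0.54% and 0.27% of the unbound ones, 0.24% and 0.22% of bound memory and 0.80% and 0.39% of unbound memory. Without the shifting positions the change was -0.35 and was not called. KIBRA (gene WWC1), a scaffold of Hippo signalling tested through a WW domain, went from -0.73 (SE 0.15) to 0.65 (SE 0.15), the only domain called higher than controls in memory. Its memory effect was -0.21 in first position alone and 1.33 in second position alone. Without the 22 shifting positions it was -0.18. Without the 18 positions, which keeps KIBRA in second position, it was 0.72 and called. The second position of KIBRA differed 1.22-fold at most between the replicates of these 2 screens. What moved the read shares was not tested.

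**Figure D4:**
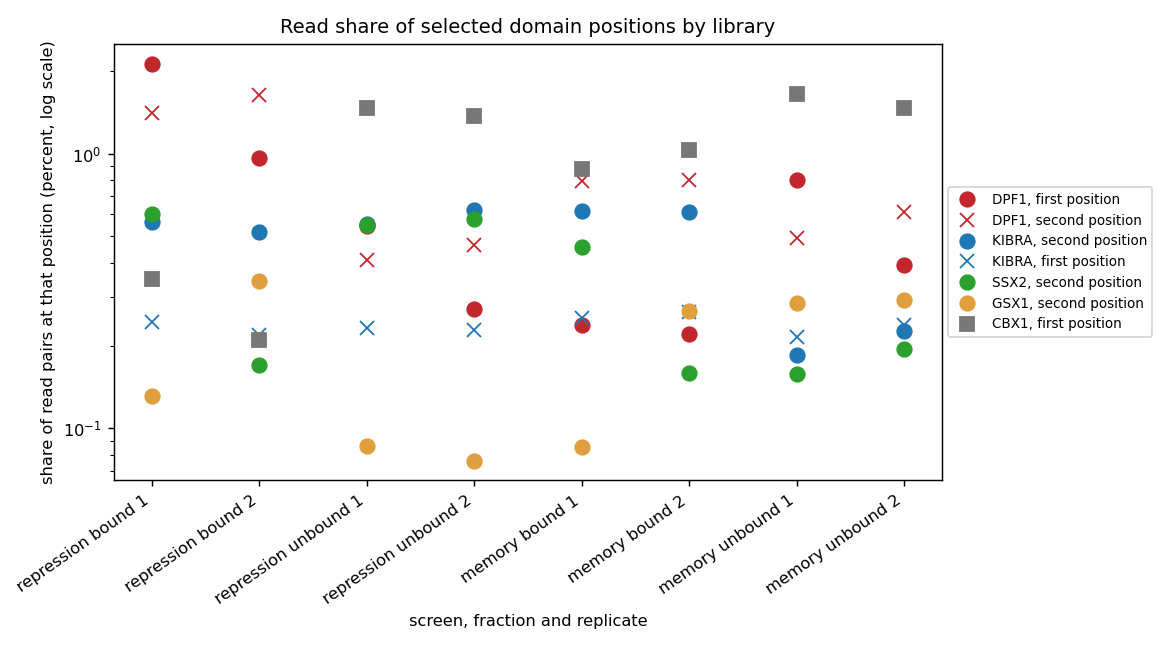
Share of a library's read pairs (y axis, percent, log scale) that hold a given domain in a given position, in the 8 libraries (x axis); circles mark positions among the 22, crosses mark the other position of DPF1 and KIBRA, and squares CBX1 in first position, which did not shift. DPF1 in first position ranges from 0.22% to 2.12% and KIBRA in second position drops to 0.18% and 0.23% in unbound memory.

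Of 8935 pairs, 4961 (55.5%) were called lower and 31 (0.347%) higher in the repression screen. In memory 532 (5.95%) were lower and 7 (0.0783%) higher. The change was called higher for 3403 (38.1%) and lower for 52 (0.582%). The median pair went from -1.98 to -0.39. Of 4851 silenced pairs (54.3%), 2938 were lost (60.6%), 420 weakened (8.66%), 79 held (1.63%) and 1413 had neither call (29.1%). With limma on the replicate scores no pair was called in memory, and without memory replicate 1 93 were called. Pairs of a domain with itself were not usable in memory, since their median score was 3.22 in replicate 1 and -0.31 in replicate 2.

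Of the 532 pairs called lower in memory, 296 (55.6%) held a KRAB variant, against 6.12% of the pairs tested. Among 538 pairs with a single KRAB variant, 294 (54.6%) were called lower in memory, and their median went from -4.63 to -2.01. Among 8388 pairs without one, 236 (2.81%) were called, and the median went from -1.75 to -0.33. KRAB M0QYP0 was called in 134 of 195 pairs, KRAB P21506 in 98 of 182 and KRAB Q3KP31 in 66 of 176. With other KRAB variants left out, their median memory effects were -1.92, -2.29 and -1.74, so the order of the counts was not that of the effects. KRAB variants had a median memory effect of -1.84 with controls (120 pairs), -2.02 with domains that did not silence (215 pairs) and -2.05 with other silencing domains (203 pairs). With the variant first the median was -1.99, and with it second -2.02. Adding a second, different KRAB variant gave -1.85 over 6 pairs. By partner family the medians ran from -3.12 with ID2 (6 pairs) and -2.63 with HP1 and chromodomain proteins (21 pairs) to -1.31 with homeodomains (6 pairs). In the same order, 2 of 6, 7 of 21 and 0 of 6 were called lower in memory, against 54.6% of the 538 pairs. The 5 pairs of a KRAB variant with MPP8 had memory effects of -5.33 to -2.63 with a median of -4.30, the lowest of any partner. Only 2 of the 5 were called lower in memory, against 54.6% of the 538 pairs, and 3 of the 5 were called silenced during recruitment.

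Silencing pairs without a KRAB variant kept less. Pairs of a silencing domain with a control went from a median of -2.69 to -0.43 (1427 pairs), and pairs of 2 different silencing domains from -3.67 to -0.84 (1163 pairs). Of these, 46 (3.22%) and 76 (6.53%) were called lower in memory. Pairs of 2 different domains that had each weakened went from -3.85 to -1.15 (189 pairs), with 35 called (18.5%). Their replicate medians in memory were -1.49 and -0.84. The members of these groups were chosen with the same libraries, so the counts are a description. Tile 18 of ENSG00000100307 was called in memory in 71 of its 183 pairs without a KRAB variant, tile 118 of ENSG00000076108 in 45 of 189 and CBX1 in 29 of 168. CDYL2, MPP8 and YAF2 were called in 2 of 129, 4 of 126 and 5 of 141, with medians of -0.86, -1.28 and -1.07 beside -1.35 for CBX1 and -1.04 for tile 118. Over all 8388 pairs without a KRAB variant 236 (2.81%) were called. In first position CDYL2, MPP8 and YAF2 held 0.04% to 0.18% of the reads of a memory library, and CBX1 0.88% to 1.64%. In second position the shares were alike, 0.24% to 0.67% and 0.27% to 0.75%. What depth did to the counts was not tested.

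**Figure D5:**
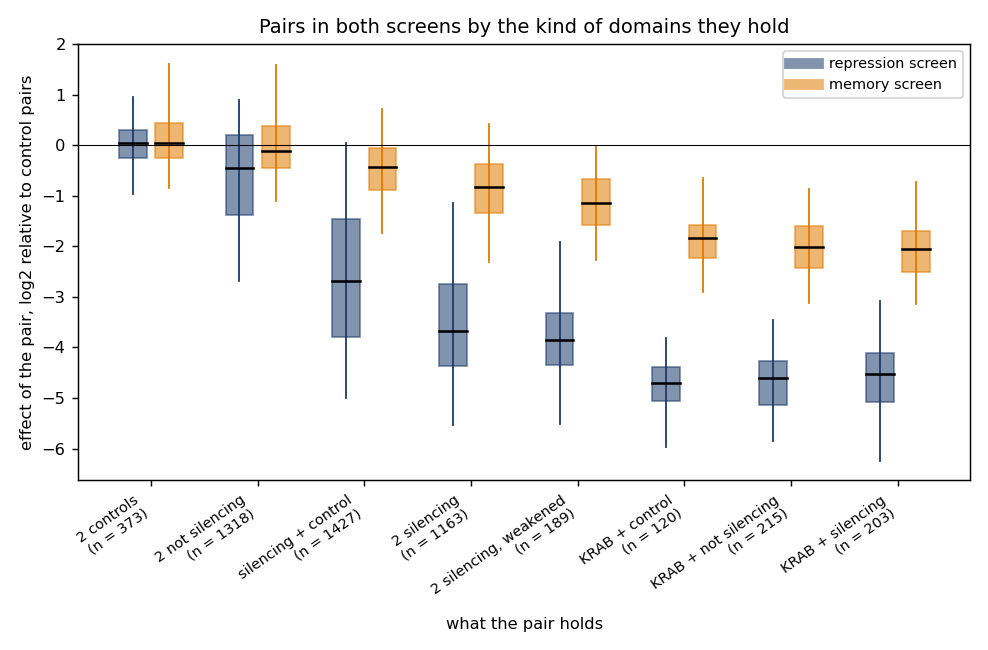
Effects of pairs (y axis, log2 relative to control pairs) in the repression and memory screens by what the pair holds (x axis, with the number of pairs); black lines are medians, boxes span the 25th to 75th percentile and lines the 5th to 95th. Pairs with a KRAB variant have memory medians of -2.05 to -1.84, and pairs of a silencing domain with a control have -0.43.

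Among pairs called lower in memory with at least 5 reads in each library, in positions outside the 22, the 10 with the lowest memory effects all held KRAB P21506 or KRAB M0QYP0. Pairs with fewer reads or no call, some without a KRAB variant, reached lower values. KRAB P21506 + DMD tile 182, the lowest of the 10, scored -4.28 and -3.62 and then -4.78 and -3.13, with a change of -0.02 (SE 1.29) that was not called. KRAB P21506 + WBP4, a WW domain of a splicing factor, scored -4.91 and -6.27 and then -4.04 and -3.39. KRAB M0QYP0 + ID2 scored -3.76 and -6.79 and then -3.73 and -3.05, with a change of 1.78 (SE 0.89) that was not called. ID2 + KRAB P21506 scored -2.52 and -4.67 and then -2.76 and -3.60, with overlapping screens and a change of 0.38 (SE 0.94) that was not called. DMD tile 357 + KRAB P21506, a pair with an inert control, scored -4.70 and -5.80 and then -3.64 and -2.96, with a called change of 1.90 (SE 0.49). The highest changes in such positions, over pairs of different domains, went from deep silencing to memory effects that were not called. CDYL2 + NOTC2 scored -5.89 and -4.98 and then 0.54 and 0.28, a change of 5.80 (SE 1.3, edgeR adjusted p = 0.009). Its memory effect was 0.39 (SE 0.85), and its bound repression libraries held 16 and 10 reads. STAT2 + ID2 scored -4.93 and -7.77 and then -1.19 and 0.15, a change of 5.68 (SE 1.14). Its memory effect was -0.54 (SE 0.73), with 128 and 12 bound repression reads. The pairs with the highest changes overall included tile 38 of ENSG00000111642 with itself, whose memory scores were 4.21 and -0.95, and HERC2 + KIBRA, which scored -4.68 and -4.94 and then 2.48 and 1.44.

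Of the 52 pairs with a called fall, 44 had DPF1 in first position and 3 had DMD tile 182 there, and 51 of the 52 were not silenced in the repression screen. DPF1 + KS6B2 scored 0.80 and 0.89 and then -4.18 and -2.22. DMD tile 182 + random 205, a pair of 2 controls, fell as far, from -0.93 and 2.08 to -4.96 and -4.99. With the 22 positions left out 6 falls were called, with the 18-position form 9, and without DPF1 in first position 8. Among pairs in positions that did not shift, tile 18 of ENSG00000100307 + ITCH, a WW domain of an E3 ligase, scored 0.04 and -0.24 and then -1.31 and -1.26, a change of -1.21 (SE 0.36, edgeR adjusted p = 0.027). The 4 replicate scores did not overlap between the screens. Over the 183 pairs of this tile without a KRAB variant, the median was -3.63 during recruitment and -1.34 in memory. The pair with ITCH thus stood apart from them in the repression screen, where it did not silence, and was near them in memory. The cause of its missing repression was not tested.

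Whether a pair kept more in memory than its stronger domain alone was tested with limma in 5490 pairs. None was called, 446 had an unadjusted p under 0.05, of which 175 lay below the stronger single domain and 271 above, and the lowest adjusted p was 0.53. The median difference was 0.02. Over 1367 pairs of 2 different silencing domains it was -0.09, with replicate medians of -0.10 and -0.12, against -0.05 for the same pairs in the repression screen. The pair farthest below in positions that did not shift was SSX2 + WBP4, at -3.32 and -3.65 in the 2 replicates. Tile 62 of ENSG00000102098 + CBX1 was at -2.91 and -2.77. Neither passed the adjusted threshold.

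The effect of position on the change was tested with limma in 78 domains. None was called, 10 had an unadjusted p under 0.05 and the lowest adjusted p was 0.13. The first 6 by p were SSX2, GSX1, KIBRA, HXA13, ZN597 and ATF1, of which ZN597 alone had no position among the 22. Among silencing domains with stable positions, TOX, an HMG-box protein, rose by 1.41 and 2.33 in first position and by 2.40 and 3.46 in second. CBX1 rose by 2.52 and 4.07 in first position and by 1.77 and 3.14 in second. Taking the median over partners in place of the mean called 9 domains, and leaving DMD tile 31 out of the controls called 4.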

How the data were processed

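The values were the authors' deposited raw counts of read pairs per ordered domain pair; per the labels' protocols domains were amplified from genomic DNA in 33 PCR cycles and sequenced in paired reads. The submitters' processing notes name Bowtie2 and hg38, with no version given in the sources used here. No molecular identifiers are stated, so errors cover counting and the spread of 2 replicates only.

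Bound and unbound counts of 8 libraries were fitted with edgeR 4.0.16 (R 4.3.3; quasi-likelihood), with a block per screen and replicate and a bound coefficient per screen, leaving 2 residual degrees of freedom, after TMM scaling over pairs of 2 controls. P-values were adjusted over all 8935 pairs or 79 domains. Scores used a floor of 5 reads and were centred on the control pairs. limma 3.58.1 tested pairs against single domains (at least 5 control partners) and position, and DESeq2 1.42.0 was an alternative. Scripts were tested on simulated data. Tables and plots used Python 3.11.15.

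The members, families and lists were chosen with earlier results of these data known. Named domains were up to 10 with the highest and lowest called change and up to 10 with the lowest called memory effect, with 1 sign in both replicates and positions, all domains of the silencing families, and up to 4 per other family by size of repression effect. Named pairs were up to 8 per direction with at least 5 reads in each library, and with 1 sign in both replicates; pairs in stable positions, and both forms of the shifting-position rule, were chosen after values were seen. 3 Polycomb tiles planned for the Polycomb family could not be matched by identifier and stayed among the 23 silencer tiles. Domain sequences are not used here. Which 6 repressors the submitters discarded is not stated, so all 100 domains were kept. 1 domain stays in the counts and is otherwise not reported here.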

Additional observations from a re-analysis of the deposited data

Results flagged for a closer look

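The change from repression to memory is itself a test of whether the bound effect differs between the screens. It was called higher for 50 domains and lower for 1. DPF1 and KIBRA are 2 of these whose effects had opposite signs in the screens. They were not the only ones, since SSX2, with a change of 2.54, had a memory effect of 0.24. DPF1 had a change of -1.04, from 0.65 to -0.39, and KIBRA a change of 1.38, from -0.73 to 0.65. In memory DPF1 was at -1.24 in first position alone and 0.26 in second, and KIBRA at -0.21 and 1.33. The read share of DPF1 in first position differed more than 2-fold between replicates of these screens, and that of KIBRA in second position did so only in the activation screen. Their part in the result was not tested.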

How the results depend on the processing

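Of 258 alternatives for counts, 188 kept the count within 1.5 times. Scaling to total counts and TMM over all pairs gave 21 and 18 domains and 889 and 895 pairs with a called rise, 37 and 38 domains and 850 and 1381 pairs with a fall, 26 and 21 domains and 2597 and 2645 pairs lower in repression, and 7 and 10 domains and 94 and 323 pairs lower in memory. Lost and weakened were then 10 and 6 domains, and 6 and 7, and 847 and 6 pairs, and 821 and 40. DESeq2 gave 3 domains and 217 pairs with a fall, 41 domains and 2071 pairs lower in memory, 13 domains lost, and 28 domains and 1524 pairs weakened. limma called 9 domains lower in memory with 8 weakened, 8 and 7 on medians over partners, and 0 pairs in memory with 0 weakened. DMD partners gave 11 and 11, the second position 7 and 7 with 0 falls, all partners 58 and 54 with 14 lost, and random partners 2 falls. Without the shifting positions, in the form with 22 or with 18 positions, 0 domains fell, and 6 or 9 pairs; without DPF1 first 8 pairs fell. These 3 alternatives were chosen after seeing the data. The position effect had 9 calls on medians and 4 without DMD tile 31.

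Leaving out a replicate left 41 to 45 rises and 0 to 1 falls, 49 to 58 domains lower in repression, 0 to 9 lower in memory, 31 to 38 lost and 0 to 9 weakened. For pairs it left 2563 to 3507 rises, 20 to 54 falls, 4011 to 4988 lower in repression, 93 to 1113 lower in memory, 1970 to 2879 lost and 76 to 690 weakened.

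Replicate numbers were not shown to pair the screens: differences between replicates correlated with r = 0.12 over pairs and 0.18 over domains, and there are only 2. With a replicate block on the fraction effect, recoded once after its values were seen, 51 domains rose and 1 fell, and 15 domains and 449 pairs were lower in memory. With no replicate block 49 rose.

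Changes reversed with total counts and with TMM over all pairs for HXA13 (-1.12, -1.36), ZN777 (-0.034, -0.27), ZN473 (-0.35, -0.59), NIZP1 C2HR (-0.86, -1.10), SMCA2 (-0.22, -0.46), KMT2B (-0.18, -0.42), NCOA2 (-0.085, -0.33), CREM (-0.16, -0.40), MYBA (-0.075, -0.32), WWP2 (-0.72, -0.96), BIN1 (-0.80, -1.04) and TERF1 (-0.39, -0.63), and with TMM for KIBRA (-0.22). HXA13 ran from -0.012 to 0.464 when a replicate was left out, and was -0.30 with DMD partners, -0.18 in second position and -0.10 with all partners. GSX1 was 0.22 in first position, and 0.21 and 0.23 without 22 and 18 shifting positions. Memory effects of KIBRA were -0.21 in first position and -0.18 without 22 positions, and of DPF1 0.10 with total counts, 0.26 in second position, and 0.31 and 0.32 without 22 and 18 positions. With total counts and TMM over all pairs the median change of the control domains was -1.40 and -1.64, so 0 no longer marked the control level. The cause of the other reversals was not tested. The depth of unbound repression replicate 1, 6647483 read pairs, and 2 replicates limit all tests.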
